A study of Mus musculus with 8 samples.

Results

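Tubb3, Cep85 and Enc1 are 3 protein-coding genes of the mouse with no textbook role in immunity. They were chosen by their mRNA levels in these samples, as non-immune genes in which the effect of DENR knockout differed strongly between IFNγ-treated and untreated cells, and they are 3 of the 20432 features measured in both treatments. Because the levels themselves chose the genes, the levels and differences below are descriptions with errors and carry no p-value. The cells were MC38, a murine colon adenocarcinoma line, and their poly(A) RNA was sequenced. Control (wild type) and DENR KO cells were each either left untreated or given 20 ng/ml IFNγ for 4 h, which makes 4 groups of 2 samples, 8 in all, and the groups share the cell line and differ in no other labelled factor. According to the study's methods, Cas9 and an sgRNA were delivered by lentivirus to make stable lines. The study calls the IFNγ-treated samples of a genotype independent, while the sources used here do not say which sgRNA was sequenced, whether the samples of a group were separate cultures or clones, or whether the untreated samples were independent too. The errors and p-values measure only the spread between these samples.

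IFNγ binds its receptor and signals through the kinases JAK1 and JAK2, which leads to the transcription of interferon-response genes. DENR forms a complex with MCTS1 that lets ribosomes start again after they have translated a short upstream open reading frame (uORF), a small reading frame in the 5′ UTR of an mRNA. Tubb3 encodes class III β-tubulin, a subunit of microtubules best known in neurons and also made by many carcinomas. Cep85 encodes a centrosomal protein that restrains the kinase NEK2 at the centrosome linker and binds STIL in centriole duplication. Enc1 encodes a BTB-kelch protein of the actin cytoskeleton and nervous system, which has been described as a Wnt and p53 target and as a regulator of NRF2.

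Since DENR acts at 5′ UTRs, the sequences around the start codons are shown, read from GRCm38 with the GENCODE annotation. The start codon is in capitals in each. That of Tubb3 lies in exon 1 on the plus strand at chr8:123411606-123411608, that of Cep85 in exon 2 on the minus strand at chr4:134172862-134172864, and that of Enc1 in exon 2 on the plus strand at chr13:97244984-97244986.
Tubb3 start codon: cgtgaagtcagcATGagggagatcgtg
Cep85 start codon: ctcaggtaactgATGgccatgcaagaa
Enc1 start codon: agttgaaacaaaATGtcagtcagtgtg
The annotated 5′ UTRs were 182 nt long in Tubb3-201 and 16 nt in Tubb3-202, 186 nt in Cep85-201 and 55 nt in Cep85-202, and 438 nt in Enc1-201. None of these 5 transcripts held a uORF, counted as an ATG with an in-frame stop codon inside the 5′ UTR. For comparison, 58.3% of the 20874 annotated genes with a 5′ UTR held a uORF in at least 1 transcript, and 12.7% held a start-stop uORF, in which the stop codon follows the ATG at once. Tubb3-201 had 1 ATG before its start codon, shown in capitals below, at chr8:123411439-123411441. It lies 167 nt ahead of the start codon in another frame and meets no stop codon inside the 5′ UTR.
Tubb3-201 upstream ATG: gtgccggtgctgATGctgcagagcctg
Which 5′ UTRs MC38 cells use was not measured.

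The windows around the transcription starts were read as well, since IFNγ raises its target genes by transcription. RefSeq windows (GRCm38.p6) from 250 bases before to 50 bases after the start were given for Tubb3 and Cep85, and Enc1 had no entry. Motifs were searched on both strands. Neither window held the interferon-response element ISRE (GAAA, 2 bases of any kind and GAAA, found in 3.44% of 32851 promoter windows of this length) or the NF-κB motif searched (GGGAA, any base and TCCC, 0.359%). The Tubb3 window held the TATA core TATAA (24.9% of windows), which here reads TATAA or its reverse complement on overlapping bases, and 1 reverse CCAAT box (37.4% of windows). In the Cep85 window 2 reverse CCAAT boxes were found. The matches are in capitals, written in the direction of transcription.
Tubb3, chr8:123411523-123411527, 30 bases ahead of the start: cagcctctTATAAgagggcgc
Tubb3, chr8:123411476-123411480, 77 bases ahead: gctccagcATTGGcccgcagc
Cep85, chr4:134187181-134187185, 100 bases ahead: gagtgtccATTGGtcaattgt
Cep85, chr4:134187126-134187130, 45 bases ahead: gactttctATTGGccagcggc
These matches describe letters in 1 window of each gene. The RefSeq start lay 129 bases from the GENCODE gene start for Tubb3 and 27 bases from it for Cep85. For Tubb3 the RefSeq start, at chr8:123411553, lay downstream of the GENCODE start, at chr8:123411424. The Tubb3 matches therefore lie inside the transcript that begins at the GENCODE start. The upstream ATG shown above, at chr8:123411439-123411441, lies ahead of the RefSeq start. An mRNA begun at the RefSeq start would not hold it. Which start MC38 cells use was not measured.

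The deposited value for a gene in a sample is a normalized count, the read count divided by 1 size factor of the sample, and the totals ran from 17661687 to 18083955 per sample. Each treatment was normalized in its own table. The knockout was checked at its target: Denr mRNA was at 1447.79 and 1297.09 in untreated control samples against 942.772 and 915.803 in untreated DENR KO samples, and at 1437.57 and 1401.46 in control samples with IFNγ against 945.71 and 957.153 in DENR KO samples with IFNγ. Denr thus stood at 67.7% of control untreated and 67.0% with IFNγ (limma with Benjamini-Hochberg adjustment, adjusted p = 0.00011 and 8.2e-06), and no sample went against its label. DENR protein was not measured here. The epithelial keratins that define a colon line were at or near 0, with no sample above 8.16 for Krt8, 2.01 for Krt18 or 6.89 for Krt19, while the lowest sample value of the mesenchymal genes was 62697 for Vim, 37032 for Fn1 and 20252 for Cd44. Of 12 immune cell markers, 12 had a mean under 10 or no value, and their summed level was between 2.05 and 13.1 per sample. Summed fibroblast and endothelial markers were 22289 to 23269 and 20971 to 21609 in untreated control and DENR KO samples, and 20444 to 20476 and 18490 to 19260 with IFNγ. Their part in the results was not tested.

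Tubb3 (ENSMUSG00000062380, chr8:123411424-123422015, plus strand) was among the most abundant mRNAs after IFNγ. Its normalized counts were 5996.4 and 5696.59 in untreated control samples and 6267.82 and 6133.52 in untreated DENR KO samples. With IFNγ they were 21472.3 and 21705.5 in control samples and 14179.7 and 14167.8 in DENR KO samples. All 4 IFNγ samples lay far above all 4 untreated ones, and with IFNγ both DENR KO samples lay below both control samples. Untreated, the order was the opposite, and both DENR KO samples lay slightly above both controls. The share of all features with such an order of samples was not counted, for this gene and for those below. In control cells the level was 3.69-fold higher with IFNγ (log2 1.88, SE 0.038), and in DENR KO cells 2.29-fold higher (log2 1.19, SE 0.016). In order of mean level among all features, Tubb3 moved from place 514 to place 48 in control cells and from 475 to 109 in DENR KO cells.

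Cep85 (ENSMUSG00000037443, chr4:134129858-134187112, minus strand) showed the widest gap of the 3 genes. Untreated control samples held 1576.57 and 1687.96 normalized counts and untreated DENR KO samples 1722.69 and 1715.66. Control samples with IFNγ held 6269.77 and 6181.73, and DENR KO samples with IFNγ 3537.8 and 3853.03. The pair of DENR KO samples with IFNγ differed from each other more than any other pair of Cep85 values, yet both stayed well below the controls. IFNγ-treated control cells had 3.81 times the untreated level (log2 1.93, SE 0.050) and DENR KO cells 2.15 times (log2 1.10, SE 0.062). The place among all features went from 2764 to 467 in control cells and from 2625 to 973 in DENR KO cells.

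Enc1 (ENSMUSG00000041773, chr13:97241105-97253034, plus strand) had the largest change with IFNγ of the 3 genes. Its levels were 1070.5 and 1084.82 in untreated control samples and 1242.97 and 1234.17 in untreated DENR KO samples. After IFNγ, control samples were at 4618.05 and 4742.01 and DENR KO samples at 3317.37 and 3334.41. Samples of a group lay close together. Again DENR KO was the lower genotype with IFNγ and the higher one untreated, with no overlap. The share of all features in this order was not counted. The ratio to the untreated level was 4.34 in control cells (log2 2.12, SE 0.021) and 2.69 in DENR KO cells (log2 1.42, SE 0.0063). For all 3 genes the SE of the change with IFNγ rests on the spread of 2 samples per group alone. A value as small as 0.0063 can therefore understate the error. The SE of the knockout effects given below came from limma and is of another kind. Enc1 moved from place 4192 to 699 among all features in control cells and from 3718 to 1114 in DENR KO cells.

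**Figure D1:**
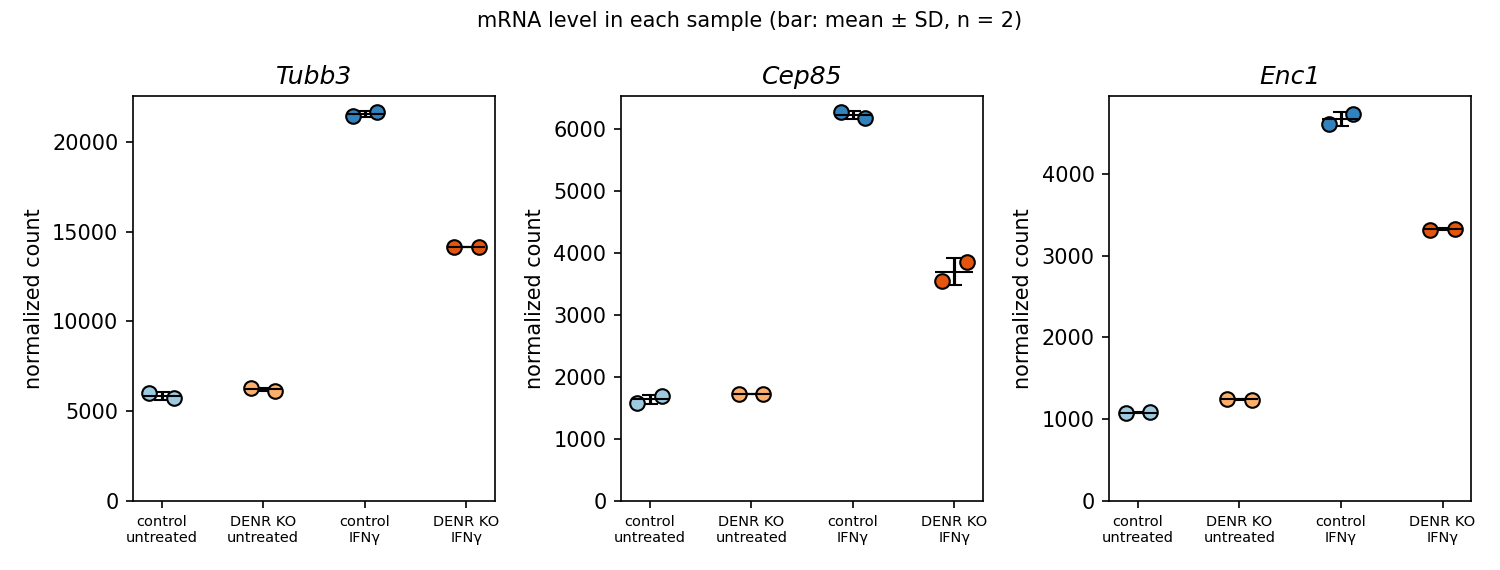
Normalized counts (y axis, linear from 0) of Tubb3, Cep85 and Enc1 in each of the 8 samples, with the group mean ± SD (n = 2) as bars. In each panel the 2 control samples with IFNγ stand highest, the 2 DENR KO samples with IFNγ stand between them and the untreated samples, and the 4 untreated samples lie close together at the bottom.

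The knockout effect, the log2 ratio of DENR KO to control within a treatment, turned sign between treatments in all 3 genes. With IFNγ it was −0.61 for Tubb3 (SE 0.047), −0.75 for Cep85 (SE 0.058) and −0.49 for Enc1 (SE 0.057), so that DENR KO cells held 65.7%, 59.4% and 71.1% of the control level. Untreated it was 0.09 (SE 0.058), 0.08 (SE 0.069) and 0.20 (SE 0.074), or 106%, 105% and 115% of control. The untreated gaps of Tubb3 and Cep85 were under 2 of their SE. In a bulk sample fewer cells that make an mRNA and less mRNA per cell cannot be told apart. The difference of the effect between treatments was −0.69 for Tubb3 (SE 0.071), −0.83 for Cep85 (SE 0.086) and −0.69 for Enc1 (SE 0.084). Taken as the rise in normalized counts over the untreated level, DENR KO cells gained 7973 against 15742 in control cells for Tubb3, 1976 against 4593 for Cep85 and 2087 against 3602 for Enc1. That rise in DENR KO cells was 50.6%, 43.0% and 57.9% of the rise in control cells.

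These values can be set beside the whole transcriptome, with the caution that the genes were picked for them. With IFNγ, 143 of 13928 tested features (1.03%) were called lower in DENR KO cells, at a limma adjusted p under 0.05 with a log2 change beyond 0.5, and 72 (0.517%) were called higher, which makes 1.54% in either direction. Untreated, 12 of 13998 (0.0857%) were called lower and 18 (0.129%) higher, or 0.214% in all. The difference between treatments was called at an adjusted p under 0.05 alone, and 60 of 13998 features (0.429%) had a more negative effect with IFNγ and 3 (0.0214%) a more positive one, 0.45% together. The effect of −0.49 for Enc1 was inside the limit of 0.5. Ordered from the most negative effect with IFNγ, Cep85 took place 212, Tubb3 place 362 and Enc1 place 544, many places before them being held by low and variable features. Changes with IFNγ were ordered over the 10199 features whose mean reached 100 in the untreated samples and also in the IFNγ samples. That limit left out genes scarce in untreated cells, so the places are not ranks among all genes raised by IFNγ. In control cells Enc1 took place 51, Cep85 63 and Tubb3 65 from the top. In DENR KO cells they took places 70, 112 and 101. The median change of those features was −0.078 on the log2 scale in either genotype, which bears on every ratio between the separately normalized tables.

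**Figure D2:**
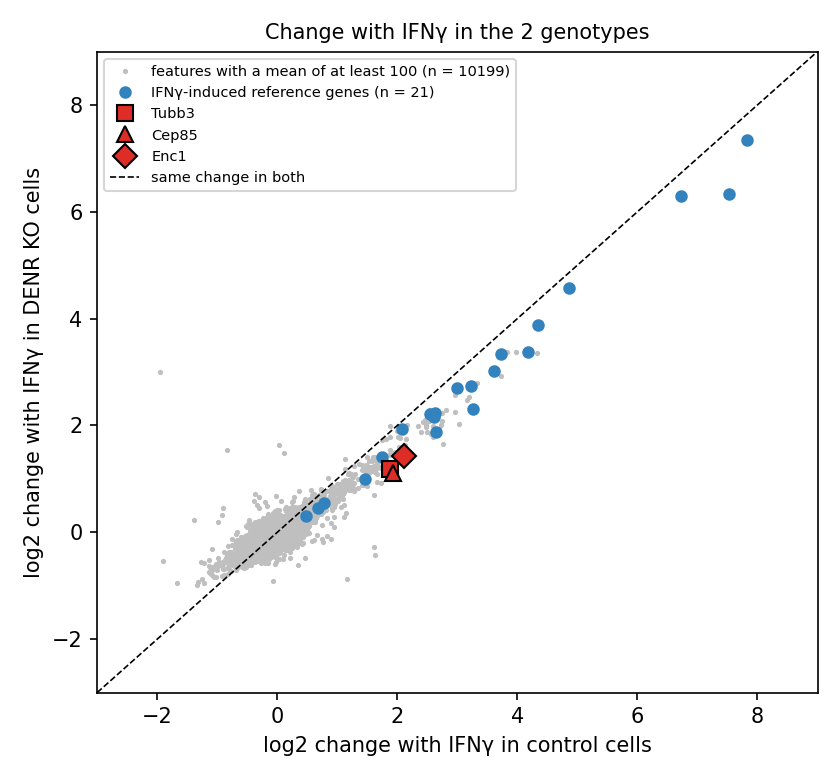
Log2 change with IFNγ in DENR KO cells (y axis) against that in control cells (x axis). Shown are the 10199 features whose mean reached 100 in each treatment. The dashed line marks the same change in both genotypes; Tubb3, Cep85 and Enc1 (red) lie below it at 1.19, 1.10 and 1.42 in DENR KO cells, and the 21 IFNγ-induced reference genes (blue) lie below it as well.

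A list of 35 well-known IFNγ-induced genes gives the scale of the response. This list was drawn up with earlier results of these data known and is no independent evidence of a direction. With IFNγ, 21 of the 35 were called lower in DENR KO cells and 0 higher, with a median knockout effect of −0.57 against −0.00036 over all tested features, and their levels ran from 37.8% to 92.5% of control with a median of 67.5%. Untreated, 0 of 28 tested were called (limma, no gene at an adjusted p under 0.05), with a median of −0.0030. For the difference between treatments 12 of 35 were called more negative, with a median of −0.45. Only 28 of these 35 had a mean high enough to be tested untreated. The others entered the difference with scarce untreated counts, so their untreated knockout effect is poorly known. Their part in the 12 calls and in the median is not separated here. For the 21 genes of the list with a mean of at least 100 in each treatment, the median change with IFNγ was 2.99 in control cells. In DENR KO cells it was 2.32. The other genes of the list fell below that limit in at least 1 treatment and are not in these medians. The percent of control of Tubb3, Cep85 and Enc1 lay inside the range of the 35 genes. Their changes with IFNγ lay under the median of the 21 in both genotypes.

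The tubulins are the family of Tubb3. Their α and β subunits pair to build microtubules, and cells choose among several genes of each kind. Compared per kb of gene model, Tubb3 stood at place 6 of 18 tubulin genes in both untreated genotypes and at place 3 in both with IFNγ. Its mean level per kb was 3130 in untreated control, 3319 in untreated DENR KO, 11557 in control with IFNγ and 7588 in DENR KO with IFNγ. Tubb5, the most abundant β-tubulin gene, had 13098, 13275, 12060 and 11941 per kb in the same order. With IFNγ, control samples held 11495 and 11620 per kb of Tubb3 beside 11853 and 12267 per kb of Tubb5 and 11924 and 13255 per kb of the α-tubulin gene Tuba1b. Both other genes stayed above Tubb3 in each of those samples, though the gap to Tubb5 was small. Tubb6 was at 3811, 3861, 3650 and 3731 per kb and Tubb4b at 2842, 2854, 2522 and 2491, so that Tubb3 lay between these genes untreated and far above both with IFNγ.

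Tubb3 therefore took a larger part of β-tubulin mRNA after IFNγ. Over the 7 β-tubulin genes measured, its share per kb was 13.6% ± 0.091 (SD, n = 2) in untreated control and 14.1% ± 0.13 in untreated DENR KO cells. It was 38.6% ± 0.11 in control and 29.3% ± 0.027 in DENR KO cells with IFNγ. The other β-tubulin genes together came to 19919 and 20174 per kb untreated and to 18420 and 18329 with IFNγ, in control and DENR KO cells, so that the genotypes were close in the summed level of the other genes. The share depends on the gene length used, and without division by length it was 9.38%, 9.78%, 29.3% and 21.5% in the same order.

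**Figure D3:**
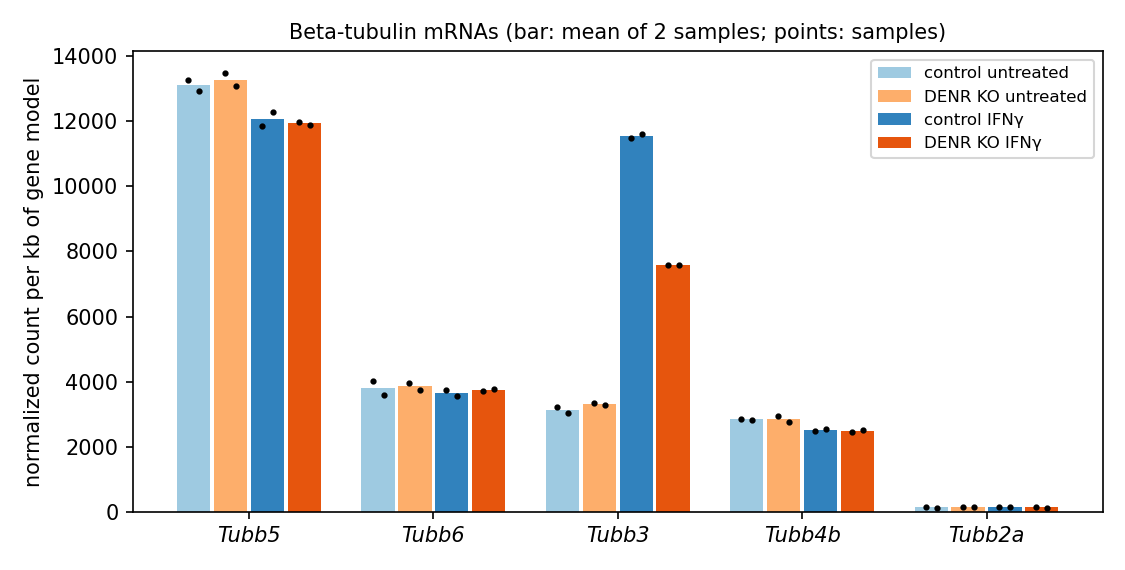
Normalized count per kb of gene model (y axis, linear from 0) of the 5 most abundant β-tubulin genes in the 4 groups, with bars as means of 2 samples and points as samples. Tubb3 rises from about the level of Tubb6 and Tubb4b in untreated cells to near that of Tubb5 in control cells with IFNγ, at a mean of 11557 per kb, and to 7588 per kb in DENR KO cells with IFNγ.

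None of the other tubulins was called. Of 14 tested beside Tubb3, 0 passed an adjusted p under 0.05 in limma in any of the 3 comparisons, with 1, 2 and 1 of them at an unadjusted p under 0.05 with IFNγ, untreated and for the difference. Over all tested features 13.4%, 9.25% and 5.74% had an unadjusted p under 0.05 in these comparisons, and the unadjusted counts of this and the following lists are to be read against those shares. Their median knockout effects were −0.041 with IFNγ and 0.020 untreated, and the median difference was −0.035, against −0.00036, 0.0019 and 0.00096 over all features. The smallest adjusted p was 0.27 with IFNγ, for Tuba1a at a knockout effect of −0.13. Genes of tubulin folding and microtubule-associated proteins gave 0 of 42 called in each comparison, with 5, 3 and 2 at an unadjusted p under 0.05 and medians of −0.015, −0.040 and 0.010. Of 20 neuronal marker genes, 14 had a mean under 10 or no value, and 0 of the 6 tested were called. Their summed level ran from 11500 to 12790 per sample, nearly all of it from Dpysl3, so that the neuron-associated Tubb3 mRNA was read in cells without most neuronal mRNAs.

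Partners of Cep85 at the centrosome did not share its levels. Stil, which organises centriole assembly, had means of 895 and 874 in untreated control and DENR KO cells and of 877 and 849 with IFNγ. Nek2, the linker kinase, was scarce, at 37.5, 56.9, 46.3 and 49.0. Cep85l, the paralog of Cep85, was at 128, 95.2, 127 and 127. None of the 3 was called in any comparison, and the smallest of their limma adjusted p-values was 0.47.

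Over the 32 tested genes of centriole duplication and the centrosome linker, with Cep85 left out, 0 were called with IFNγ. Cenpj, which sets centriole length, passed an adjusted p under 0.05 with IFNγ at a smaller change. Its levels were 275.674 and 328.61 in untreated control, 272.727 and 268.256 in untreated DENR KO, 549.206 and 603.071 in control with IFNγ and 448.745 and 462.95 in DENR KO with IFNγ. The knockout effect on Cenpj with IFNγ was −0.34 (SE 0.094, limma adjusted p = 0.045), and it did not pass when control replicate 2 or either DENR KO replicate of that treatment was left out. Like Cep85, Cenpj had its higher levels in the IFNγ samples, with a change of 0.93 on the log2 scale in control cells. That was the highest among 111 other genes of the 4 families described here with a mean of at least 100 in each treatment. None of those 111 exceeded a log2 change of 1, whereas Tubb3, Cep85 and Enc1, which were chosen from these same levels, all did.

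Plk4, the kinase that starts centriole duplication, was called lower in untreated DENR KO cells. It was at 225.368 and 188.798 in untreated control samples and at 71.6154 and 77.6271 in untreated DENR KO samples, a knockout effect of −1.46 (SE 0.18, limma adjusted p = 1.6e-05). With IFNγ its values were 253.086 and 52.3534 in control and 237.166 and 204.128 in DENR KO samples. The values of the control pair with IFNγ lay far apart, and the effect of 0.92 (SE 1.1) was not called (adjusted p = 0.84). When all 8 samples shared 1 estimate of the spread, the untreated call was lost as well (adjusted p = 0.65). The difference between treatments was not called for any of the 32 genes (0 at an unadjusted p under 0.05), and the family medians were 0.012, −0.069 and 0.074 in the order used above.

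Enc1 belongs to the BTB-kelch proteins, many of which hand substrates to the CUL3 ubiquitin ligase. Klhl25, its closest relative, had means of 425 and 420 in untreated control and DENR KO cells and of 473 and 481 with IFNγ. Cul3 was at 3498, 3770, 3517 and 3549 in the same order. Neither gene followed the levels of Enc1, and neither was called. Of the 31 tested family genes beside Enc1, 0 were called in any comparison, with 4, 2 and 0 at an unadjusted p under 0.05 in limma and medians of 0.0065, −0.029 and 0.019. The smallest adjusted p was 0.072, for Klhl21 with IFNγ.

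**Figure D4:**
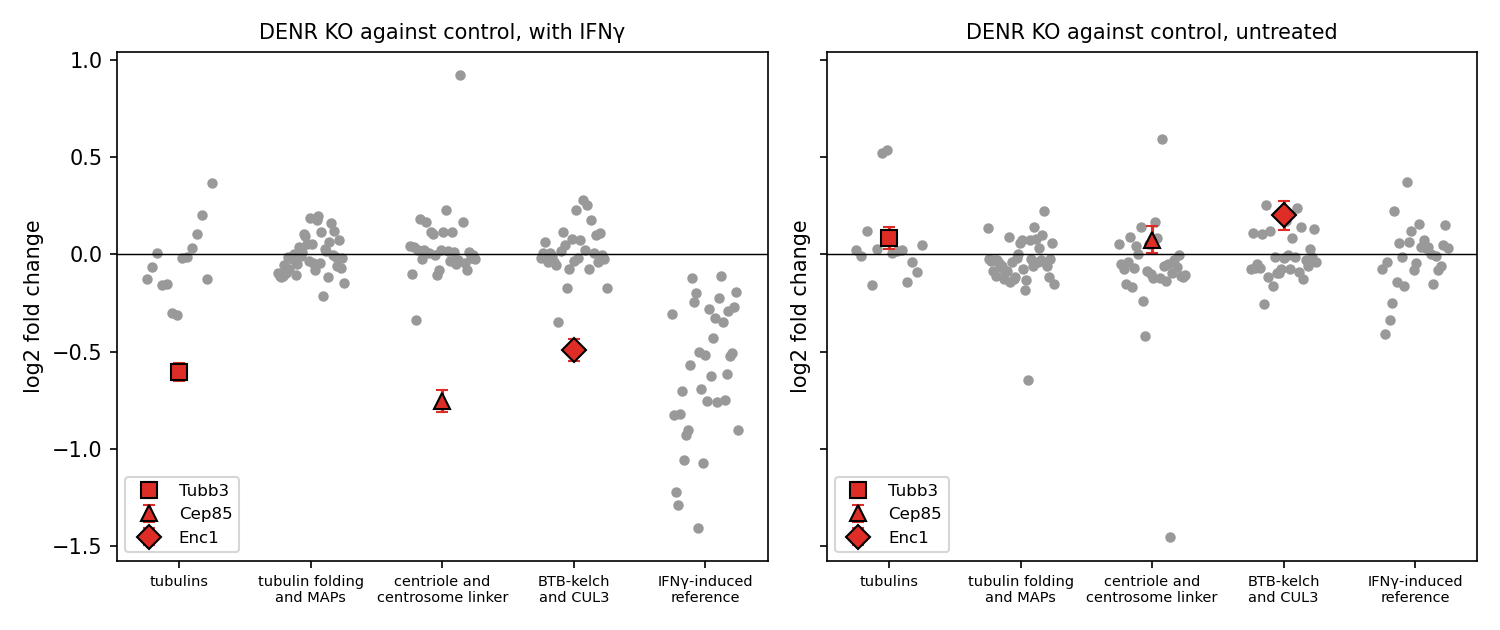
Log2 ratio of DENR KO to control (y axis) with IFNγ (left) and untreated (right) for Tubb3, Cep85 and Enc1 (red, ± SE) above the name of their family, and for the other tested genes of each family and of the IFNγ-induced reference list (grey points). With IFNγ the red points at −0.61, −0.75 and −0.49 lie below all other genes of their own families and within the reference list, and in untreated cells the 3 genes lie among their families. The 3 genes were chosen for the difference between the panels.

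The genes next to each locus were compared as well. For each gene the nearest expressed named genes were taken, 2 on each side, 12 in all, at distances from 1069 bases to 993811 bases. The farthest were those beyond Enc1 at higher coordinates, Arhgef28 at 646435 bases and Utp15 at 993811 bases. With IFNγ, untreated and for the difference between treatments, 0 of 12 were called in limma, with 2, 1 and 1 at an unadjusted p under 0.05, beside 13.4%, 9.25% and 5.74% of all features. Their differences between treatments ran from −0.43 to 0.27, against −0.69 to −0.83 for Tubb3, Cep85 and Enc1, and the smallest adjusted p was 0.79, for Sh3bgrl3. That gene lies 1069 bases from Cep85 and had a change with IFNγ of 0.37 (SE 0.089) in control and 0.17 (SE 0.056) in DENR KO cells. Its levels were 2504.2 and 2214.55 in untreated control, 2549.7 and 2526.32 in untreated DENR KO, 3024.73 and 3071.74 in control with IFNγ and 2966.05 and 2744.49 in DENR KO with IFNγ, so that the IFNγ samples were the higher ones at this neighbour too.

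Def8, 1512 bases beyond Tubb3, was higher in DENR KO cells. It stood at 1936.76 and 1794.09 in untreated control, 2151.4 and 2273.79 in untreated DENR KO, 1531.84 and 1540.4 in control with IFNγ and 2031.16 and 1738.5 in DENR KO with IFNγ. The genotypes did not overlap in either treatment, an order whose share over all features was not counted. The direction for Def8 was opposite to that of Tubb3 with IFNγ. Its knockout effect was 0.29 with IFNγ (SE 0.073, limma adjusted p = 0.022), which fell inside the limit of 0.5 and did not pass without DENR KO replicate 1, and 0.25 untreated (SE 0.068, adjusted p = 0.11). Tcf25, on the other side of Tubb3 at 7589 bases, had changes with IFNγ of −0.016 in control and −0.033 in DENR KO cells. The other neighbours of Tubb3, Spire2 and Afg3l1, were at 0.036 and −0.24 in control cells, so that none of these 4 genes shared its change with IFNγ.

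The melanocortin receptor gene Mc1r lies just ahead of Tubb3. Its mean was under 10 in untreated samples and above 10 with IFNγ, so it was not among the neighbours, which had to reach 10 in both, and it was picked out after its values had been seen. It was at 4.02 and 3.06 in untreated control, 2.94 and 4.91 in untreated DENR KO, 25.6 and 15.1 in control with IFNγ and 22.6 and 13.7 in DENR KO with IFNγ. All 4 IFNγ samples were above all 4 untreated ones, and the genotypes overlapped in both treatments. The annotation also holds a read-through gene model that spans Tubb3, which was not analysed here, and the handling of reads shared between such models is not given in the sources used here.

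**Figure D5:**
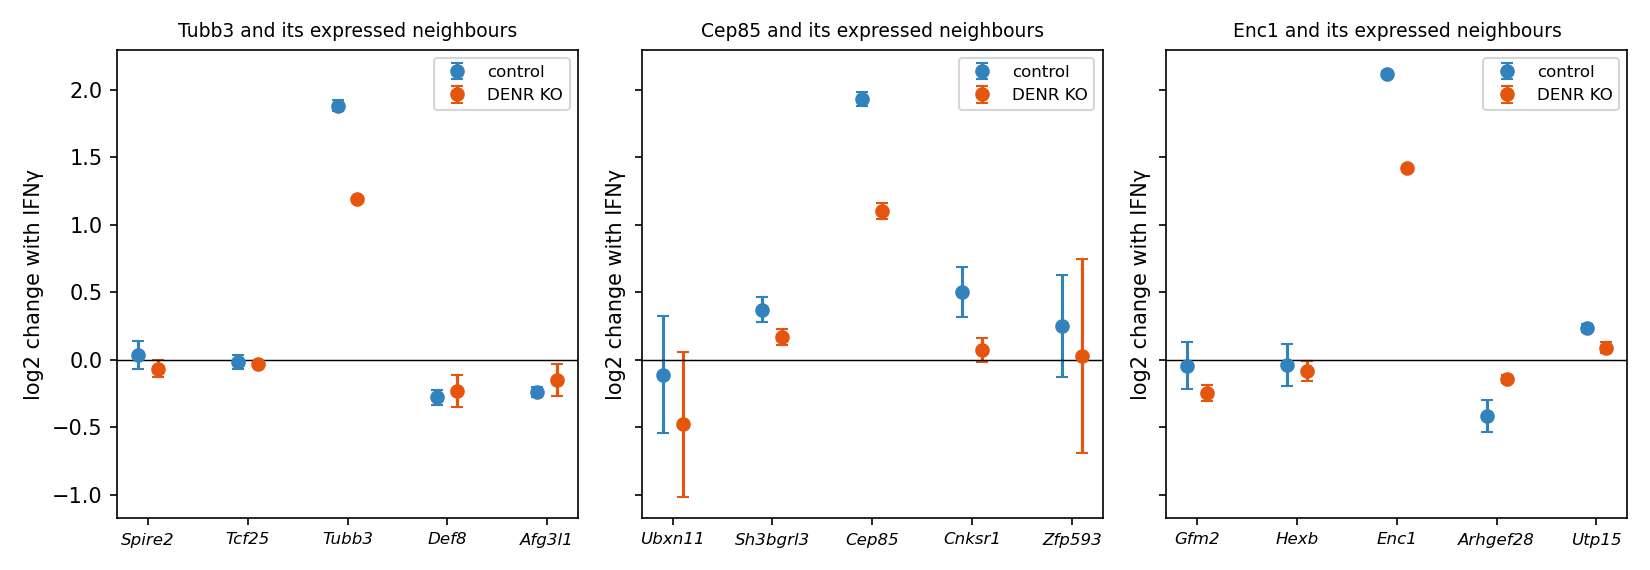
Log2 change with IFNγ (y axis) in control (blue) and DENR KO cells (orange), with SE bars, for Tubb3, Cep85 and Enc1 and the 2 nearest expressed genes on each side, in chromosomal order. The 3 genes, chosen from these same levels, stand at 1.88, 1.93 and 2.12 in control cells and at 1.19, 1.10 and 1.42 in DENR KO cells. The highest neighbour value is 0.50, for the scarce Cnksr1 in control cells.

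The levels of the 3 genes followed each other across the 8 samples. Pearson's r of log2(value + 1) was 0.996 between Tubb3 and Cep85, 0.996 between Tubb3 and Enc1 and 0.988 between Cep85 and Enc1, over the same 8 libraries in 4 groups, so that r mostly reflects the group means. The genes most like each one were named from 9671 candidates with a mean of at least 100 in both tables, by r alone. For Tubb3 they were Wars (0.998), Mnda (0.998), Socs1 (0.997), Slc11a2 (0.997) and Noct (0.997). For Cep85 they were Agfg1 (0.997), Birc3 (0.996), Tm9sf4 (0.996), Cttnbp2nl (0.996) and Sod2 (0.996), and for Enc1 they were C1s1 (0.999), Inpp1 (0.998), C1ra (0.998), Rnf19b (0.997) and Nfkb1 (0.997). On 1 scale over the 8 samples 13 of the 15 were named again, all but Slc11a2 and Rnf19b.

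Genes of high r differed widely in size. Wars, the tryptophanyl-tRNA synthetase gene, was at 1451.81 and 1373.63 in untreated control, 1489.21 and 1403.18 in untreated DENR KO, 13434 and 13516.2 in control with IFNγ and 7188.77 and 7218.69 in DENR KO with IFNγ. Its change with IFNγ was 9.54-fold in control and 4.98-fold in DENR KO cells, above that of Tubb3 in both. Socs1, the feedback inhibitor of JAK kinases, changed 6.22-fold and 3.69-fold. C1s1, a complement protease gene, changed 8.13-fold and 4.10-fold and, like Enc1, stood higher in DENR KO than in control cells when untreated, at 122% of control. Sod2, the mitochondrial superoxide dismutase gene, changed 3.18-fold and 2.12-fold, close to Cep85. At the other end, Tm9sf4 changed 1.32-fold and 1.15-fold. The rise in DENR KO cells was between 47.7% and 65.9% of the rise in control cells over these 15 genes, beside 50.6%, 43.0% and 57.9% for Tubb3, Cep85 and Enc1. The 15 genes were picked for following the 3 genes over these same samples, so the nearness of the shares is no independent result.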

How the data were processed

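RNA-seq of MC38 control and DENR KO cells, untreated or with IFNγ, was analysed from 2 tables, 1 for each treatment. The authors deposited a normalized signal per gene and sample, the read count divided by a size factor of the sample, beside group means, fold changes and p-values of their own comparison, which were not used. For these deposited values, the submitters' processing notes name HISAT2 2.0.5, StringTie 1.3.3b, featureCounts 1.5.0-p3 and DESeq2 1.20.0, run by the authors, and an older mouse build, while the coordinates in the tables are those of GRCm38. Strand handling is not given in the sources used here, so reads of overlapping genes may be shared. Dividing a sample by its smallest value gave whole numbers, within 0.01, for 100% of features in each sample. If that smallest value is 1 read, samples held 17369020 to 18403790 reads. Counting error limits the low genes, and 2 samples per group limit the others.

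Values were analysed as log2(value + 1) in limma 3.58.1 (R 4.3.3) with an intensity trend and robust moderation, over features with a mean of at least 10, separately in each table (4 samples), and as an interaction over 8 samples. p-values were two-sided and Benjamini-Hochberg adjusted over all tested features. Fold changes on this scale understate changes of low genes. Changes with IFNγ cross 2 separately normalized tables and were not tested, and their SE was taken from the sample values without moderation. The procedure was first tested on simulated data. The 3 genes and 12 gene lists (301 entries) were chosen with earlier results of these data known. Genes were named by rule: the 3 genes, Denr, the 5 genes most correlated with each, the 2 nearest expressed genes on each side, called list genes, the tubulins, Cep85l, Nek2, Stil, Klhl25 and Cul3. Alternatives were other pseudocounts, filters, centring, a block for the replicate number, 1 fit of all samples and leaving out each sample.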

Additional observations from a re-analysis of the deposited data

Results flagged for a closer look

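In Tubb3, Cep85 and Enc1 every DENR KO sample was below every control sample with IFNγ, and every DENR KO sample was above every control sample untreated, which is what put them here. The knockout effect with IFNγ minus that in untreated cells was −0.69 for Tubb3, −0.83 for Cep85 and −0.69 for Enc1 on the log2 scale. Because the genes were chosen for this difference, it was not tested. The untreated effects were small for Tubb3, at 0.09 (SE 0.058), and for Cep85, at 0.08 (SE 0.069). How many of all features have the same order of samples was not counted, so the order alone is no result about these genes. Groups of 2 samples were too small to look for single samples far from their group.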

How the results depend on the processing

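The direction of the knockout effect on Tubb3, Cep85 and Enc1 was the same under each alternative run. When single samples were left out, the effect with IFNγ ran from −0.61 to −0.60 for Tubb3, −0.82 to −0.69 for Cep85 and −0.51 to −0.47 for Enc1, the untreated effect from 0.048 to 0.12, 0.026 to 0.12 and 0.19 to 0.21, and the difference from −0.73 to −0.66, −0.89 to −0.77 and −0.71 to −0.67. The change with IFNγ ran from 1.85 to 1.92 in control and 1.18 to 1.21 in DENR KO cells for Tubb3, 1.88 to 1.98 and 1.04 to 1.16 for Cep85, and 2.10 to 2.14 and 1.42 to 1.43 for Enc1. With values on 1 scale, chosen after seeing the data, it was 1.96 and 1.26, 2.01 and 1.17, and 2.20 and 1.497. With samples centred, the untreated effect on Enc1 was 0.17. In these leave-1-out fits a lone sample was assumed to vary like the other groups.

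Features called with IFNγ ran from 155 to 159 lower and 69 to 126 higher (126 without control replicate 1), untreated from 13 to 30 lower and 17 to 42 higher (30 and 34 without DENR KO replicate 1, 27 and 42 without DENR KO replicate 2), and for the difference from 35 to 81 more negative (35 without IFNγ control replicate 2, 37 without untreated DENR KO replicate 1) and 1 to 12 more positive. Fitting all 8 samples together gave 90 lower with IFNγ. The replicate numbers were not shown to pair samples. In each group the log2 difference of replicate 1 from replicate 2 was taken for 10415 features. Between groups these differences correlated at −0.017 to 0.23. With the number as a replicate block, 110 features were higher with IFNγ, 28 lower and 38 higher untreated, and 13 more positive in the difference, and with IFNγ 1 tubulin, 5 folding genes, 3 centriole genes, 3 kelch genes and 2 neighbours passed the adjusted p. The difference for Denr, −0.017, ran from −0.096 to 0.063 and turned to 0.0017 without IFNγ control replicate 1, 0.063 without untreated control replicate 2 and 0.0043 without untreated DENR KO replicate 1. The cause was not tested. Count tests with edgeR and DESeq2 and TMM scaling, though planned, were not run, since 2 samples had a smallest value within 1% of 1 and the reads could not be taken as recovered. Of the named genes' other values, 159 kept their call and 28 lost it.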

Other observations

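Enc1 has been described with 3 transcriptional programmes, and lists of their targets were read for that reason. Of all tested features 1.54% were called with IFNγ, 0.214% untreated and 0.45% for the difference. In lists this short, 0 or 1 called gene beside those shares is no result about a programme. Of 19 tested NRF2 targets, which defend against oxidative stress, 0 were called in any comparison. Txnrd1, a thioredoxin reductase gene, and Fth1, the ferritin heavy chain gene, passed the adjusted p with IFNγ at smaller changes of −0.21 (limma adjusted p = 0.028) and −0.20 (adjusted p = 0.042), and neither passed without IFNγ control replicate 2 or either IFNγ DENR KO replicate. The medians of that list were −0.050 with IFNγ and −0.038 untreated. Of 15 tested Wnt and β-catenin targets, 1 was called, higher with IFNγ in DENR KO cells, beside 0.517% of all tested features. It was Ephb2, a receptor kinase of the intestinal crypt, at 0.52 (limma adjusted p = 0.00068). The effects of the 15 genes with IFNγ ran from −1.26 to 0.79. Ccnd1 (cyclin D1, 0.18) and Sox9 (a crypt transcription factor, 0.23) passed the adjusted p at smaller changes, neither of them in every fit that left a sample out, and the median of the list was 0.17 with IFNγ and 0.039 untreated.

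Of 24 tested p53 targets, 1 was called, lower with IFNγ, beside 1.03% of all tested features: the death receptor gene Fas. It was at 44.2688 and 45.9238 in untreated control, 30.412 and 47.1658 in untreated DENR KO, 738.765 and 668.513 in control with IFNγ and 338.527 and 443.416 in DENR KO with IFNγ, an effect of −0.86 with IFNγ (SE 0.11, limma adjusted p = 6.5e-05). Fas is also an interferon-response gene. Apaf1, of the apoptosome, was lower at −0.33 (adjusted p = 0.029), a call lost when any sample of that treatment was left out, and Phlda3, an AKT inhibitor gene, was higher at 0.39 (adjusted p = 0.0016). The p53 medians were 0.017 with IFNγ and −0.055 untreated. Dcn, a matrix proteoglycan gene among the fibroblast markers, was lower in DENR KO cells in both treatments, at −0.47 with IFNγ (limma adjusted p = 4.2e-05) and −0.31 untreated (adjusted p = 0.013). The untreated call was lost without either control replicate and without DENR KO replicate 2 (adjusted p from 0.059 to 0.41). Fn1 was higher with IFNγ at 0.33 (adjusted p = 0.0022).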
